A study of Mus musculus with 6 samples.

Results

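The transcripts examined here were those of 10 early response transcription factors, Fos, Fosb, Fosl2, Jun, Junb, Jund, Atf3, Batf, Egr1 and Egr2, taken by gene symbol from a table of 37043 symbols. Their levels were compared in bulk RNA of BMBAs, basophils grown from mouse bone marrow, 6 h after PBS or IL-3 (10 ng/mL) was added, with 3 libraries in each group. BMBAs of both groups were raised from bone marrow of wild-type C57BL/6J mice in 0.3 ng/mL of a cytokine for 7 days and were enriched with beads against CD49b. The methods of the study name that cytokine as IL-3, so the PBS group had also been grown in IL-3, and the comparison is one of a short high dose with PBS in cells raised on a low dose. Neither the age of the mice nor whether the PBS cells kept IL-3 in their medium over the 6 h is stated. The study made this comparison while asking whether IL-3 makes immature basophils leave the bone marrow.

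AP-1 is a family of dimeric transcription factors. A JUN protein pairs through a leucine zipper with another JUN, a FOS, an ATF or a BATF protein, and the pair binds short palindromic DNA elements. EGR proteins are zinc finger factors that bind GC-rich elements. Many of these genes are immediate early genes, whose transcripts appear within minutes of a signal through MAP kinases and often decay soon after, and in basophils and mast cells AP-1 acts with NFAT on cytokine genes. A measurement at 6 h therefore reads a late state and does not show an early peak.

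Of the 10 factors, 6 were higher in IL-3, 1 was lower and 3 were not called. Egr1 rose 6.05-fold, Egr2 3.49-fold, Jund 2.90-fold and Batf 1.87-fold, while Fos fell to 0.514 of its level in PBS. Fosl2 and Junb rose by less, and Jun, Fosb and Atf3 did not pass the test. Calls rest on the quasi-likelihood test of edgeR over 16675 genes with a threshold of 0.05 on the adjusted p, and 38.2% of these genes were called, 18.0% as higher and 20.2% as lower. The groups did not overlap in 8 of the 10 factors, against 48.2% of all genes tested. All IL-3 libraries lay above all PBS libraries in 6 factors (23.8% of all genes) and below them in 2 (24.4%). The median log2 fold change was 0.41 over the 10 factors and -0.0033 over all genes tested.

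**Figure D1:**
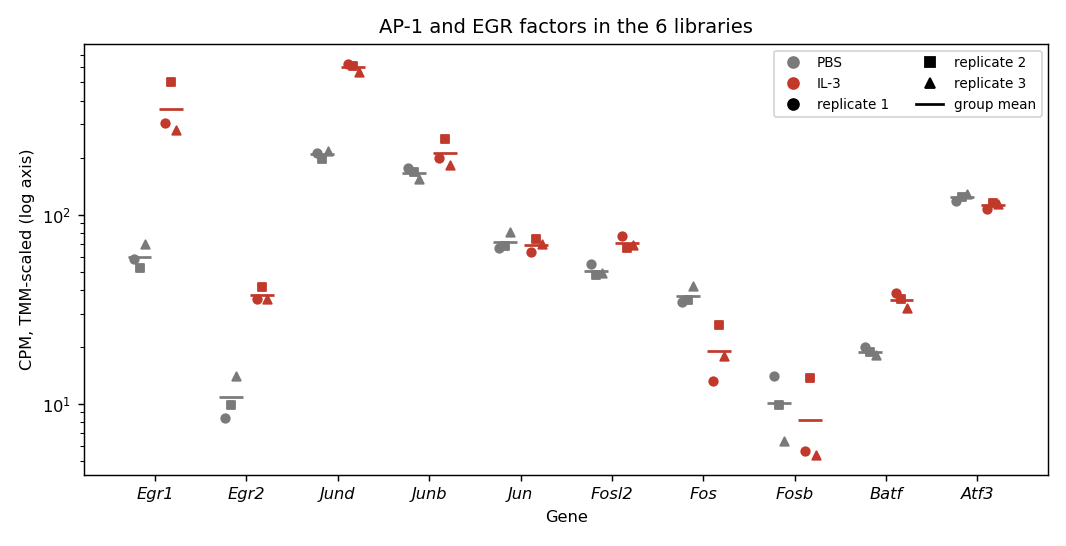
CPM of each factor in each of the 6 libraries on a log axis, grey for PBS and red for IL-3, with 1 symbol per replicate and a line at the group mean. The IL-3 libraries of Egr1 lay between 281 and 502 CPM and those of Jund between 570 and 629 CPM, all above their PBS libraries, whereas the Jun and Fosb values of both groups overlapped.

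Libraries held between 10537540 and 13999287 counts, and 3 counts corresponded to 0.233 to 0.296 CPM. Mitochondrial genes took 3.53% to 3.58% of the counts in PBS and 2.01% to 2.07% in IL-3, and the TMM scaling factors were also apart (1.05 to 1.07 and 0.924 to 0.964). Both moved with the groups. With the ribosomal RNA gene and the mitochondrial rows left out before scaling, the same 6 factors were called higher and the same 1 lower, and without TMM the calls of Junb and Atf3 changed, as given with those genes. Libraries of one group were more alike (Pearson's r of log2 CPM across genes 0.985 to 0.988) than libraries of different groups (0.952 to 0.957), and genes are not independent replicates. All 10 factors passed the filter on low counts, and their lowest count in any library was 57, in Fosb. On the same strand, no stretch of 50 bases of their transcripts occurred in a transcript of another gene in GENCODE M21 (0 of 1356 for Batf to 0 of 9628 for Fosl2). Basophil markers were present throughout, with a summed level of 10886 to 12121.5 CPM in PBS libraries and 17197.5 to 17449.5 CPM in IL-3 libraries, and 6 of the 8 were called higher and 1 lower.

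To show the DNA in front of some of these genes, the bases before the RefSeq start site are printed for 4 factors that went different ways: Fos, which fell, Fosb, which was not called, and Junb and Batf, which rose. Sequences are from RefSeq, build GRCm38.p6, 5′ to 3′ on the strand of the gene, and end before the first base that GENCODE M21 places in the gene. They lie at chr12:85473640-85473889 on the plus strand for Fos, chr7:19310052-19310295 on the minus strand for Fosb, chr8:84978749-84978998 on the minus strand for Junb and chr12:85686470-85686668 on the plus strand for Batf. Capitals mark TGACG, the core of the cyclic AMP response element that ATF and CREB proteins bind and that some AP-1 dimers also bind, and in Fosb also the EGR element GCGNGGGCG.
Fos: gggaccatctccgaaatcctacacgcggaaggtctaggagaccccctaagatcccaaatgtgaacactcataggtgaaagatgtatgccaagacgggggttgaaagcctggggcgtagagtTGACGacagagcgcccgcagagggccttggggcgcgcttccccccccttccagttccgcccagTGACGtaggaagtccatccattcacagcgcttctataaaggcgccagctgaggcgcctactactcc
Fosb: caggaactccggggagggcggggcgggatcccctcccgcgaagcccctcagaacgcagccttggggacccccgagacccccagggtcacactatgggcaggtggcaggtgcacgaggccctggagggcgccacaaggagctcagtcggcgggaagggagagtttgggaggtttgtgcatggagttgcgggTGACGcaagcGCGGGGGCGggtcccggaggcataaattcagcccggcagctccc
Junb: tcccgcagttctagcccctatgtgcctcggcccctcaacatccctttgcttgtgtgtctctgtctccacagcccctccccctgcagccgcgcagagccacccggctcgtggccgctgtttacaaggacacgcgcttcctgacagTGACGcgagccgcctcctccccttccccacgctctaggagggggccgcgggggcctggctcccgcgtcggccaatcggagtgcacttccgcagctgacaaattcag
Batf: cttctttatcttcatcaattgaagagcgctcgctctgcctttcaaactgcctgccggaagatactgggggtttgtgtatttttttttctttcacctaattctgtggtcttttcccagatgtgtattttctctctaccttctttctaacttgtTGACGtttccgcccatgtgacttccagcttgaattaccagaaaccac

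Such windows could be searched on both strands for 7 of the factors (Fos, Fosb, Jun, Junb, Jund, Batf and Egr2), and TGACG was found in 4 of them. Egr1, Fosl2 and Atf3 were not searched, and the window of Jund ends 1210 bases before its GENCODE start. The same letters occur in 17.9% of all 27025 promoters of 250 bases, 1 per gene. Counted back from the end of the printed bases, Fos held TGACG at 129 and at 66, Batf at 47, Fosb at 54 and Junb at 106. That end borders the GENCODE start in Fos, Fosb and Batf and lies 30 bases before it in Junb. Only Fosb held GCGNGGGCG, at 44 counted in the same way, and 4.65% of all promoters hold it. The AP-1 element TGANTCA, the STAT element TTCNNNGAA and the CArG box were found in 0 of the 7, against 6.87%, 7.18% and 1.40% of all promoters. The 4 genes with TGACG include genes that rose, fell and were not called. Windows of the factors are shorter than 250 bases for Fosb (244), Batf (199) and Egr2 (226), and a match of letters does not show that a factor binds there. No bases further upstream were searched, so an element not found here may still lie in front of the gene.

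The EGR genes showed the largest rises of the 10. Egr1, a zinc finger factor induced by growth factors and cytokines through the ERK pathway, was at 58.0, 52.3 and 69.9 CPM in the PBS libraries and at 307, 502 and 281 CPM in the IL-3 libraries. All IL-3 libraries were above all PBS libraries, and replicate 2 was far above the other IL-3 libraries. The means were 60.1 ± 9.02 and 363 ± 120 CPM (SD, n = 3 each), and the log2 fold change was 2.60 (SE 0.172, edgeR adjusted p 5.77e-09), the 104th highest of all genes tested. Without IL-3 replicate 2 it was 2.29.

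Egr2, a relative of Egr1 that also restrains cytokine genes in lymphocytes, was at 8.43, 9.91 and 14.1 CPM in PBS and at 35.6, 41.5 and 35.9 CPM in IL-3. The groups were apart, and the spread was wider in PBS than in IL-3 (SD 27.2% and 8.74% of the mean). The log2 fold change was 1.81 (SE 0.148, edgeR adjusted p 7.88e-08). The genes lie on chromosome 18 (34859823 to 34864984) for Egr1 and on chromosome 10 (67535475 to 67542188) for Egr2 in GRCm38.

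Egr3, the third member of the family, also rose. It was at 4.99, 4.21 and 7.05 CPM in PBS and at 46.4, 77.9 and 42.5 CPM in IL-3, and replicate 2 was again the highest IL-3 library. Its log2 fold change was 3.36 (SE 0.229, edgeR adjusted p 8.33e-09). Nab1 and Nab2, which encode corepressors that bind EGR proteins, rose by 0.49 and 0.69 on the log2 scale (edgeR adjusted p 0.00293 and 2.56e-05). Nab2 went from 26.4 ± 2.36 to 42.7 ± 3.29 CPM. Egr4 and Wt1 were too rare to be tested, and Egr4 was at 0 in all libraries but IL-3 replicate 2, where it was at 0.083 CPM, the level of 1 count.

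Per length, the EGR transcripts together went from 17.8 ± 3.11 to 105 ± 32.2 CPM per kb of exon. Egr1 made up 73.1% to 78.2% of that sum in the PBS libraries and 75.6% to 78.9% in the IL-3 libraries, so its share overlapped between the groups. The share of Egr2 was 15.0% to 19.4% in PBS and 8.61% to 12.7% in IL-3, and that of Egr3 was 6.15% to 7.49% and 11.6% to 12.5%. Egr2 thus lost and Egr3 gained a part of the sum in every IL-3 library. These shares are descriptions and were not tested.

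**Figure D2:**
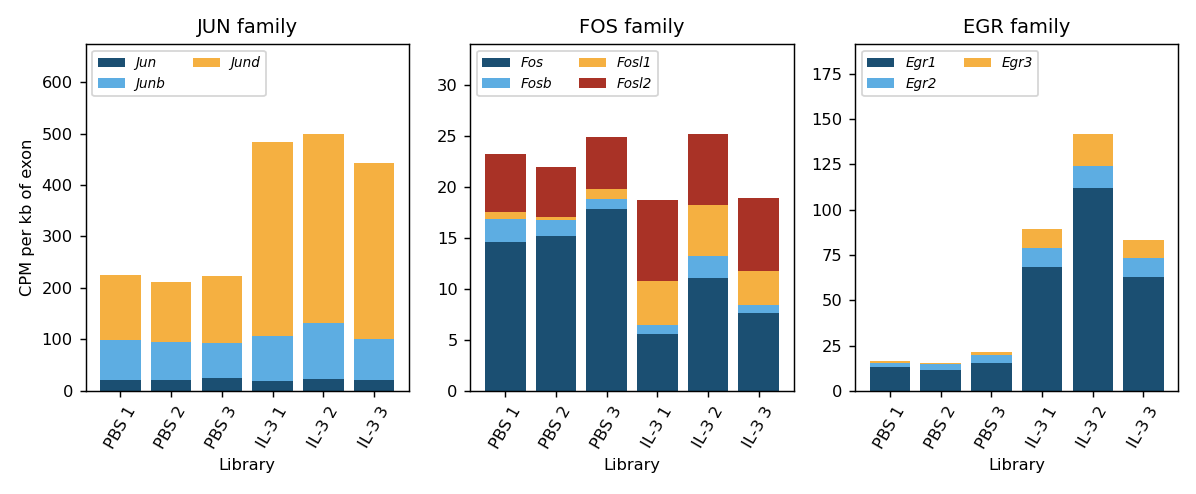
Stacked bars of CPM per kb of exon in each library for the JUN, FOS and EGR families, with 1 colour per gene. The JUN bars grew from a mean of 220 to 475, mostly in the part of Jund, the EGR bars grew from 17.8 to 105, and the FOS bars overlapped in height (means 23.4 and 20.9) while the share of Fos was smaller and those of Fosl1 and Fosl2 larger.

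Among the JUN genes Jund rose most and Junb by less. Jund, which is often expressed at a steady level in resting cells, was at 212, 197 and 216 CPM in PBS and at 629, 613 and 570 CPM in IL-3. Its replicates were close together, with an SD of 4.78% and 5.05% of the mean, and the groups lay far apart. The log2 fold change was 1.54 (SE 0.0561, edgeR adjusted p 3.97e-12), and it was between 1.496 and 1.58 with any 1 library left out. Jund is a gene of a single exon (chromosome 8, 70698949 to 70700616, plus strand). An annotated antisense gene, Gm11175, covers 52.6% of that exon and had 73 to 157 counts per library, against 2247 to 7362 for Jund. Gm11175 was called higher too, at 0.57 (edgeR adjusted p 0.00760). Reads were mapped to a single strand of the transcripts, but whether the library preparation keeps the strand is not stated, so reads of the overlap may not be told apart. RefSeq places the start of Jund 1210 bases upstream of GENCODE, so levels of Jund per length are given for both starts.

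Junb, an inducible JUN protein that can oppose Jun, was at 177, 167 and 155 CPM in PBS and at 200, 250 and 182 CPM in IL-3. The groups were apart, but by a narrow gap, since the lowest IL-3 library was at 182 and the highest PBS library at 177 CPM. The log2 fold change was 0.34 (SE 0.0915, edgeR adjusted p 0.00806). This call was lost without IL-3 replicate 2 (log2 fold change 0.20, edgeR adjusted p 0.0584) and in the Wald test of DESeq2, where the log2 fold change was again 0.34 (adjusted p 0.0627). It was also lost under scaling by library totals (0.18, edgeR adjusted p 0.150), which moves the median of all genes from -0.0033 to -0.17, so relative to all genes the value of Junb was nearly the same. Junb shares 173 exon bases with the opposite-strand gene Prdx2, which had 471 to 991 counts and was called lower.

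Jun, the founding member and the main early partner of FOS, was at 66.3, 67.9 and 81.0 CPM in PBS and at 63.4, 74.2 and 70.2 CPM in IL-3. The groups overlapped, and the log2 fold change was -0.048 with a 95% interval from -0.23 to 0.13 (edgeR adjusted p 0.700). With PBS replicate 3 left out the sign turned (0.047), as it did with IL-3 replicate 1 left out (0.0066). Jun shares 232 exon bases with the antisense gene Junos, which had 15 to 40 counts and was not called.

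Ratios within a library do not depend on how libraries are scaled. The ratio of Jund to Jun counts was 3.20, 2.90 and 2.67 in the PBS libraries and 9.92, 8.26 and 8.12 in the IL-3 libraries. Per length, Jund made up 55.7% to 58.3% of the JUN sum in PBS and 73.6% to 77.9% in IL-3. With the 1210 bases up to the RefSeq start counted as exon, an alternative chosen after seeing the data, these shares were 42.1% to 44.7% and 61.8% to 67.2%, still apart. With the shorter length Jun went from 9.24% to 11.4% of that sum to 4.11% to 4.97%. The JUN sum itself, with the shorter length of Jund, went from 220 ± 6.69 to 475 ± 29.2 CPM per kb.

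The FOS genes went in both directions. Fos, the classic immediate early gene, was at 34.4, 35.6 and 41.9 CPM in PBS and at 13.1, 26.1 and 17.8 CPM in IL-3. Every IL-3 library was below every PBS library, and IL-3 replicate 2 was the nearest to PBS. The log2 fold change was -0.96 (SE 0.169, edgeR adjusted p 0.000298), and it ranged from -1.26 to -0.77 with 1 library left out. In the test against a fold of 1.5, Fos was no longer called.

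Fosb, a close relative of Fos, was at 13.99, 9.91 and 6.34 CPM in PBS and at 5.63, 13.7 and 5.35 CPM in IL-3. The groups overlapped, and the log2 fold change was -0.29 with a 95% interval from -0.96 to 0.38 (edgeR adjusted p 0.507). Single libraries decided this value, since it was -0.88 without IL-3 replicate 2 (edgeR adjusted p 0.0202) and 0.020 without PBS replicate 1 (edgeR adjusted p 0.973).

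Fosl2, which encodes FRA2, a FOS protein without the strong activation domain of Fos, was at 54.9, 47.9 and 49.2 CPM in PBS and at 76.9, 67.0 and 69.3 CPM in IL-3. The groups were apart, with a log2 fold change of 0.49 (SE 0.0775, edgeR adjusted p 0.000117). Fosl1, which encodes the related FRA1, rose by 2.65 on the log2 scale (SE 0.294, edgeR adjusted p 2.68e-06), from 1.34 ± 0.672 to 8.51 ± 1.75 CPM. An opposite-strand gene, Ccdc85b, shares 57.2% of the exon bases of Fosl1, had 315 to 444 counts per library and was not called (log2 fold change -0.032). Ccdc85b was above Fosl1 in both groups (means of 31.6 ± 4.29 and 31.0 ± 3.51 CPM), so if strand was not kept in the libraries, its reads could enter the level of Fosl1 and its share of the FOS sum.

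The FOS sum per length was 23.4 ± 1.46 CPM per kb for PBS and 20.9 ± 3.70 CPM per kb in IL-3, and the ranges of both groups overlapped. Fos made up 62.8% to 71.6% of it in PBS and 29.9% to 44.0% in IL-3. Fosl1 and Fosl2 took 1.37% to 3.83% and 20.4% to 24.4% in PBS, and 17.4% to 22.8% and 27.5% to 42.5% in IL-3. Fos was the largest part of the sum in every PBS library and in IL-3 replicates 2 and 3, and in IL-3 replicate 1 it was Fosl2.

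Batf encodes a small AP-1 protein without an activation domain of its own, which pairs with JUN proteins and, together with IRF4 or IRF8, binds composite elements in lymphocytes. Batf was at 19.9, 18.8 and 18.1 CPM in PBS and at 38.4, 35.7 and 31.96 CPM in IL-3, and the groups were apart. The log2 fold change was 0.90 (SE 0.101, edgeR adjusted p 2.99e-06). Its IRF partners went opposite ways. Irf4 rose by 4.08 on the log2 scale, from 0.802 ± 0.229 to 13.7 ± 2.82 CPM (edgeR adjusted p 2.74e-09), while Irf8 fell, with -1.71, from 35.0 ± 1.82 to 10.7 ± 0.773 CPM (edgeR adjusted p 3.14e-09). Batf lies 209.4 kb from Fos on chromosome 12, and the neighbours moved in opposite directions.

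Atf3, a stress-induced factor that often represses inflammatory genes, was at 119, 123 and 129 CPM in PBS and at 107, 115 and 114 CPM in IL-3. All IL-3 libraries were below all PBS libraries, but the difference was small and was not called, with a log2 fold change of -0.14 and a 95% interval from -0.27 to -0.013 before adjustment (edgeR adjusted p 0.0770). Scaling by library totals gave -0.30 and a call (edgeR adjusted p 0.00104). Relative to the shift of all genes under that scaling, the value of Atf3 was nearly the same.

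**Figure D3:**
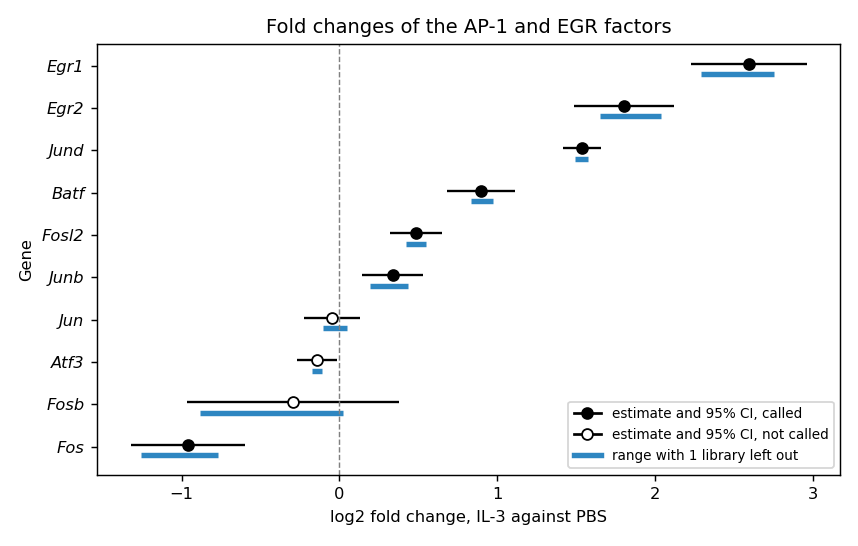
Log2 fold change of IL-3 against PBS for each factor (points, filled where called) with its 95% interval (black) and the range of estimates with 1 library left out (blue). Jund had the narrowest left-out range among the larger rises (1.496 to 1.58), and the left-out ranges of Jun and Fosb crossed 0.

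Per length the order of the factors in PBS was Jund, Junb, Atf3, Jun, Fos, Batf, Egr1, Fosl2, Egr2 and Fosb, from 125 ± 5.97 to 1.61 ± 0.613 CPM per kb. The libraries of neighbours in this order were apart except for Batf and Egr1. The first place of Jund in PBS depends on its length, since with the RefSeq start it was at 68.5 to 75.1 CPM per kb and overlapped Junb at 67.4 to 77.1. In IL-3 it was above Junb with either length, and with the RefSeq start it was at 210 ± 10.6 CPM per kb. In IL-3 the order was Jund, Junb, Egr1, Atf3, Batf, Jun, Egr2, Fos, Fosl2 and Fosb. With the shorter length of Jund it ran from 362 ± 18.3 to 1.32 ± 0.756 CPM per kb. There the libraries of Junb and Egr1, of Batf and Jun, of Egr2 and Fos, and of Fos and Fosl2 overlapped. Egr1 went from the 7th to the 3rd place and Fos from the 5th to the 8th. In PBS the ranges of Fos (14.6 to 17.8 CPM per kb) and Egr1 (11.7 to 15.6) overlapped, though they are not neighbours in the order. The ratio of Egr1 to Fos in raw counts was 1.69, 1.47 and 1.67 in the PBS libraries and 23.4, 19.2 and 15.8 in the IL-3 libraries. Raw counts are not divided by length, and Egr1 has 4.48 kb of exon against 2.35 kb for Fos.

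The factors differed in how tightly replicates agreed. Over the 9165 genes of the same abundance range, the median SD was 7.09% of the mean in PBS and 6.56% in IL-3. Fosb (38.0% and 57.4%), Fos (10.9% and 34.4%) and Egr1 (15.0% and 33.2%) were above these medians in both groups, as were Egr2 (27.2% and 8.74%), Jun (11.2% and 7.90%) and Fosl2 (7.35% and 7.26%). For Fosb, Fos and Egr1 the dispersion relative to genes of like abundance was at the 99.5th, 98.9th and 99.6th percentile of all genes tested. Junb and Egr2 were at the 96.6th and 93.4th percentile, Jun and Fosl2 at the 86.7th and 65.0th, and Jund, Batf and Atf3 at the 52.9th, 47.1st and 37.4th.

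Several factors were highest in the same IL-3 library. In IL-3 replicate 2, 7 of the 10 factors (Egr1, Egr2, Fos, Fosb, Jun, Junb and Atf3) had the highest value of their group, and Fosl2, Jund and Batf had theirs in replicate 1. Of 34 other immediate early genes tested, 18 also had their highest IL-3 value in replicate 2, that is 52.9% against 31.8% of all genes tested. Egr1, Fos and Fosb stood above their IL-3 mean by 0.51, 0.51 and 0.88 log2 units there. In PBS, replicate 3 held the highest value of Fos, Jun, Jund, Atf3, Egr1 and Egr2, and replicate 1 that of the other 4. The other immediate early genes were highest in PBS replicate 3 in 35.3% of cases against 34.2% of all genes tested, and in PBS replicate 1 in 41.2% against 33.7%. IL-3 replicate 2 held 12690583 counts, a depth between those of the other IL-3 libraries.

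**Figure D4:**
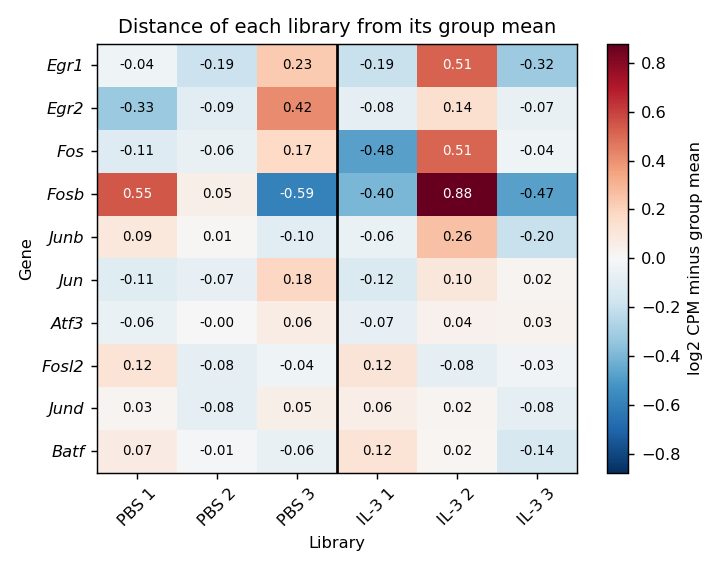
Difference of log2 CPM from the mean of the group for each factor (rows) in each library (columns), red for above and blue for below, with the value in each cell. IL-3 replicate 2 was above its group mean in Egr1 (0.51), Fos (0.51), Fosb (0.88) and Junb (0.26), whereas all values of Jund lay between -0.082 and 0.060 and all values of Atf3 between -0.070 and 0.064.

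By Pearson's r of log2 CPM over the 6 libraries, the genes most like Egr1 among 11225 candidates were Ier2 (0.9997), Sec61a1 (0.9992) and Egr3 (0.9988), with log2 fold changes of 1.02, 0.55 and 3.36. Ier2 is itself an immediate early gene. The genes most like Fos were Sbk1 (0.998), Ipp (0.997) and Ngrn (0.996), which were at -0.63, -0.70 and -0.41. All 6 libraries enter these values, so they hold the difference between the groups, and 1032 genes had an r above 0.95 with Egr1 and 84 with Fos.

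Of 87 other genes around AP-1 and EGR in 7 lists, 79 were tested, 43 were called higher and 16 lower. That is to be read against 18.0% higher and 20.2% lower among all genes. Their median log2 fold change was 0.30, against -0.0033 over all genes tested.

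Among relatives of FOS, JUN, ATF and BATF, 6 of 12 tested genes were called higher and the other 6 were not called. After Fosl1, the smallest adjusted p were those of Creb5, at 1.34 (edgeR adjusted p 1.54e-05), and Atf4, the main factor of the amino acid response, at 0.50. MAF factors, which share the zipper fold, split evenly, with 2 of 7 higher and 2 lower. Maff and Mafk, which encode small MAF proteins without an activation domain, rose, with log2 fold changes of 2.11 and 0.58.

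Upstream factors also went both ways. Of 6 genes of serum response factor and its partners, which switch on Fos and Egr genes, 2 were higher and 3 lower. Srf and the ternary complex factor Elk1 rose by 0.55 and 0.56, while Elk3 and the coactivators Mrtfa and Mrtfb fell, at -0.45, -0.64 and -0.68. Of 15 MAP kinase genes tested, 6 were higher and 3 lower. Map2k4, which activates the JUN N-terminal kinases, rose by 1.28 on the log2 scale, with means of 81.2 ± 5.16 and 197 ± 2.005 CPM (edgeR adjusted p 9.30e-11), and Map2k1 and Rps6ka1 of the ERK pathway rose by 0.39 and 0.42. Mapk3 (ERK1) and Mapk14 (p38 alpha) fell, at -0.33 and -0.29, and Map2k6 fell, at -2.22, from a low level of 1.88 ± 0.709 CPM. Its IL-3 libraries were at 0.0987, 0.333 and 0.698 CPM, of which the lowest is 1 count, and without IL-3 replicate 3 the value was -3.00.

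Other immediate early genes were more often higher than lower, with 23 of 34 tested genes higher and 7 lower and a median of 0.55. The smallest adjusted p among the rises were those of Ier3 at 2.25 (edgeR adjusted p 4.21e-14), Dusp6 at 1.78 and Dusp5 at 1.60. Dusp5 and Dusp6 encode phosphatases that switch off ERK. Among the falls they were those of Gadd45a at -1.54, Sgk1 at -0.88 and Rgs1 at -0.74. Fos, itself an immediate early gene but not on this list, was lower while the majority of the listed genes tested were higher.

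**Figure D5:**
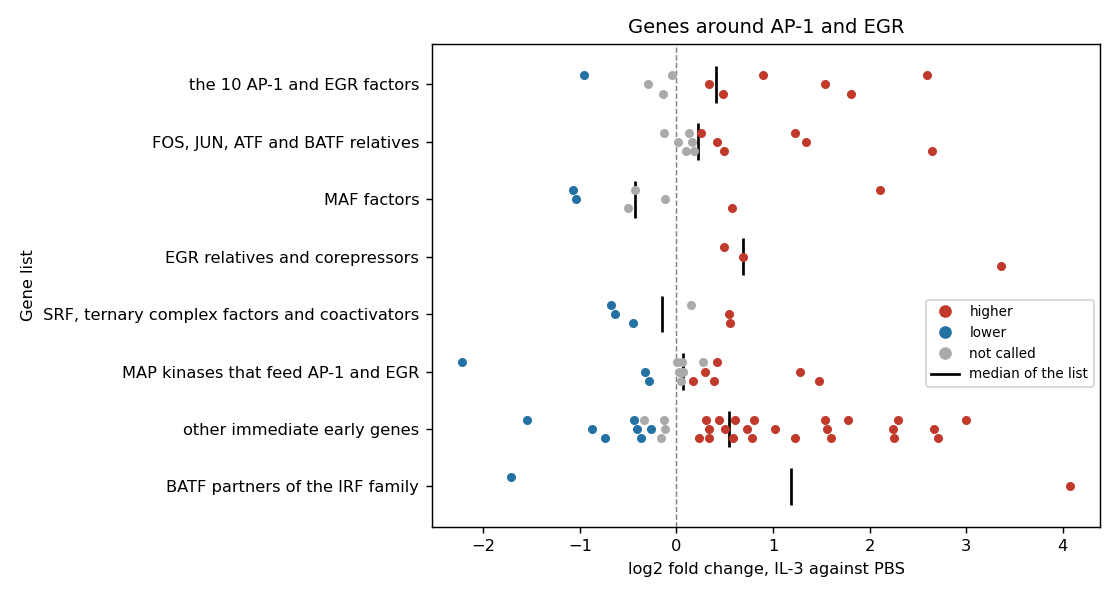
Log2 fold change of every tested gene of the 8 lists (points, red for called higher, blue for called lower, grey for not called), with a black line at the median of each list. The other immediate early genes had a median of 0.55, and the MAF factors had a median of -0.43.

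Because BMBAs come from mixed cultures, markers of other cells were read beside these results, and in bulk RNA fewer cells of a type and less RNA per cell cannot be told apart. Of 11 monocyte and macrophage markers, 9 were called lower and 1 higher, none was at 0 in all libraries, and their summed level was 11824 to 12757 CPM in the PBS libraries and 6182.5 to 6812 CPM in the others. The median of these markers was -0.97, next to -0.96 for Fos and -1.71 for Irf8, and the part of such cells in those falls was not tested. Mast cell markers were higher in 4 of 6 tested genes and had sums of 841 to 945 and 1438 to 1572 CPM, beside the rises of Jund, Batf and the EGR genes, where their part was not tested either. Neutrophil markers were higher in 3 and lower in 1 of 6 tested genes, with sums of 113 to 156 and 186 to 245 CPM. Eosinophil markers were higher in 1 and lower in 3 of 5, with 155 to 173 and 95.02 to 136 CPM. Erythroid markers were lower in 2 of 4, with 100.04 to 219 and 54.6 to 101.1 CPM. Of 7 NK cell markers only Nkg7 was tested, and it was higher (2.22), with sums of 6.46 to 9.64 and 29.1 to 33.4 CPM, while Gzma was at 0 in all 6 libraries. B and T cell markers were lower in 1 of 4 tested genes and summed to at most 11.2 CPM.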

How the data were processed

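Bulk RNA-seq was performed by the study on 6 libraries of BMBAs, 3 given PBS and 3 given IL-3, each from its own culture in a single experiment. The authors trimmed reads with Cutadapt 3.4, mapped the single-end reads with Bowtie2 to one strand of reference RNA and counted reads per gene; the deposited values are raw read counts per gene symbol. The methods name the build GRCm38 and the submitters' processing notes GRCm39. The labels name column extraction of RNA, the methods direct lysis. No molecular identifiers are described, so PCR copies were counted as reads, and how reads with several origins were treated is not described. Library totals were 10537540 to 13999287 counts. Limits from counts cover counting error only.

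Counts were analysed in R 4.3.3 with edgeR 4.0.16 (filterByExpr, TMM scaling, quasi-likelihood F test, group as the only term, two-sided, Benjamini-Hochberg over all genes tested). SE was derived from the F value. CPM is TMM-scaled, and log2 CPM for correlations used a prior count of 2. CPM per kb used the union of exons in GENCODE M21 (GRCm38). Every row carried a symbol, 4866 rows had no count, and no pair of libraries in a group looked like copies (chi-square per degree of freedom at least 2.75). On simulated counts for this comparison, 82.0% of 194 genes changed 2-fold were called among 16339 genes, and 0.0867% of unchanged genes. The simulation changed few genes, evenly up and down, and left out the difference in TMM factors between the groups. In the real counts 38.2% of genes were called, so these rates need not hold for them. Alternatives used DESeq2 1.42.0 and limma 3.58.1 (voom), other scalings and filters, the edgeR exact test, a replicate block and leaving out each library.

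The factors and lists were chosen with earlier results of these data known. Named genes were the 10 factors, the EGR list, the 3 smallest adjusted p per direction in each pathway list, and the 3 genes most like the factor with the largest rise and fall among genes with a mean of at least 5 CPM. Not every gene selected in this way is reported here.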

Additional observations from a re-analysis of the deposited data

How the results depend on the processing

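Egr1, Egr2, Jund, Batf, Fosl2 and Fos kept their direction and their call under every scaling, filter, test and left-out library, except that Fosl2 and Fos were not called in the test against a fold of 1.5, with log2 fold changes of 2.29 to 2.76, 1.64 to 2.04, 1.37 to 1.58, 0.74 to 0.97, 0.32 to 0.55 and -1.26 to -0.77. The calls of all 10 factors were the same at 0.01. Library totals without TMM gave 1698 genes called higher, with 25.2% of calls higher against 47.1% with TMM, and 2 factors called lower (Fos and Atf3, at -0.30). The test against a fold of 1.5 left 4 factors higher (Jund, Batf, Egr1 and Egr2) and 0 lower. The estimates of Fosl2 and Junb (1.40-fold and 1.26-fold) lay below that fold. Fos lay beyond it, at 0.514 of its PBS level, but with a wider SE than Batf (0.169 and 0.101 log2 units). With 1 library left out, between 1 and 2 factors were called lower, and 5 to 6 higher. The second lower factor was Fosb, without IL-3 replicate 2 (-0.88). Fosb was at 0.020 without PBS replicate 1, and Jun ranged from -0.10 to 0.047 with 1 library left out, with 0.047 for PBS replicate 3 and 0.0066 for IL-3 replicate 1. Junb was not called with library totals (0.18), the DESeq2 Wald test (0.34) or without IL-3 replicate 2 (0.20). Under library totals the median of all genes moved to -0.17, which is the size of the shift in Junb and Atf3, and for the other changes the cause was not tested. All 29 genes that the rule for named genes selects beside the 10 factors, likeness aside, kept their direction and call under the scalings, filters, tests, replicate block and left-out libraries run for them, which do not include the threshold of 0.01 and the test against a fold of 1.5. With a replicate block, 6089 genes were called and the calls of the 10 factors were the same as without it. Libraries that share a number did not deviate together from their group means (r of -0.0087, -0.016 and -0.022), and the numbers were not taken as pairs. Egr4 and Wt1 had too few counts to be tested. With the length of Jund extended to the RefSeq start, its mean share of the JUN sum was 43.3% in place of 56.8% in PBS and 65.0% in place of 76.2% in IL-3, by the longer length alone.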
